A study of Mus musculus with 12 samples.

Results

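Here 10 genes of the MHC class I pathway were followed across the series, chosen by name for their roles: the heavy chain genes H2-K1 and H2-D1, the light chain gene B2m, the peptide transporter genes Tap1 and Tap2, the tapasin gene Tapbp, the immunoproteasome genes Psmb8, Psmb9 and Psmb10, and the class I transactivator gene Nlrc5. These are 10 of the 16920 genes in the count tables, and all 10 passed the filter on low counts, which left 12064 genes for testing. The choice of the 10 was made with earlier results of these data known. The series holds 12 RNA-seq libraries of mouse peritoneal macrophages, from wild type (WT) mice and from mice labelled as Ythdf1 knockout (KO), with 3 libraries in each of 4 groups. The cells were kept in culture overnight and then given either PBS, the vehicle, or 1 µg/mL lipopolysaccharide (LPS) for 6 h, and the question put to them was how loss of YTHDF1, a protein that binds N6-methyladenosine in mRNA, bears on the macrophage response to LPS. All mice were of C57BL/6 background and 6 to 10 weeks old, and the KO line (Ythdf1-/-) was made with CRISPR/Cas9. Cells were elicited with starch broth by the series record and with thioglycollate by the methods of the study.

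MHC class I molecules show fragments of intracellular proteins to CD8+ T cells at the cell surface. The proteasome cuts the proteins, TAP carries the peptides into the endoplasmic reticulum, and tapasin holds the empty heavy chain and β2-microglobulin beside TAP until a peptide binds. Interferon and NF-κB signals raise the transcription of these genes, and under such signals the catalytic subunits encoded by Psmb8, Psmb9 and Psmb10 take the places of the constitutive subunits encoded by Psmb5, Psmb6 and Psmb7. LPS is a bacterial ligand of TLR4, and macrophages answer it with NF-κB activity and with type I interferon of their own.

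The libraries held between 21546274 and 22017005 counts. Values below are in CPM, counts scaled to a common library size with TMM factors, so 3 counts correspond to between 0.105 and 0.187 CPM. Ythdf1 itself was not lower in the KO libraries: it lay between 41.9 and 44.97 CPM in WT and between 55.4 and 58.1 CPM in KO under PBS (log2 difference 0.40 ± 0.06 (SE), adjusted p = 0.000133), and between 194 and 212 CPM in WT and between 192 and 205 CPM in KO under LPS (-0.03 ± 0.06, adjusted p = 0.724). Counts over the whole gene do not show whether part of it is deleted, so KO below names the label. The 6 macrophage markers, mostly Lyz2, summed to between 16647 and 18261 CPM over all libraries, while the Cd3 genes were near 0 and the B cell list stayed at or below 1.92 CPM. Single macrophage markers differed between groups. Csf1r averaged 617 CPM in WT PBS, 425 in WT LPS, 639 in KO PBS and 295 in KO LPS. In the same order Mertk averaged 95.0, 233, 97.9 and 98.3 CPM, and Adgre1 586, 1125, 468 and 1084 CPM. Fibroblast markers summed to 66.0 to 78.3 CPM in WT PBS, 108 to 120 CPM in WT LPS, 29.2 to 40.6 CPM in KO PBS and 51.1 to 64.3 CPM in KO LPS, with all 4 markers above the floor in each group. Of the T cell list only Lck was above the floor, in the LPS groups, where the list summed to 8.39 to 13.04 CPM in WT and 3.73 to 4.28 CPM in KO. Skeletal muscle markers summed to 15.5 to 30.8 CPM in the WT groups, 0.319 to 17.2 CPM in KO PBS and 0.428 to 0.684 CPM in KO LPS. Neutrophil markers, mostly S100a8, summed to 4.003 to 5.26 CPM in WT PBS, 7.87 to 10.2 CPM in WT LPS, 4.88 to 5.63 CPM in KO PBS and 8.40 to 16.0 CPM in KO LPS, with Mpo and S100a9 at or near 0, and dendritic cell markers reached at most 1.16 CPM with PBS and 3.49 CPM with LPS. The part of these cells in the results below was not tested. Libraries of the LPS groups differed in a way that tracks transcript length: the first WT LPS library stood apart from the other 2, and the second and the third KO LPS library departed in opposite directions, as described below.

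Of the members, 7 lie on chromosome 17, Psmb10 and Nlrc5 on chromosome 8, and B2m on chromosome 2 (GRCm38.p6). On chromosome 17, Psmb9, Tap1, Psmb8 and Tap2 follow one another within 34292 bases, at chr17:34182030-34216321, and the annotated starts of Psmb9 and Tap1 are 225 bases apart and point away from each other. RefSeq windows before the annotated start were at hand for 8 of the 10 members, all but Tap2 and Nlrc5, and 3 stretches are shown because each holds a match to the NF-κB motif. H2-K1 lies on the minus strand at chr17:34000348-34000468, H2-D1 on the plus strand at chr17:35262913-35263033 and B2m on the plus strand at chr2:122147538-122147685, each written 5′ to 3′ toward its gene. The capitals mark the matches to the NF-κB motif, to the core of the interferon-stimulated response element (GAAA, any 2 bases, GAAA), and to CCAAT, the NF-Y motif, read on either strand. In H2-K1 and H2-D1 the first run of capitals is a pair of overlapping NF-κB matches and the second is the NF-Y motif on the opposite strand. In B2m the order is response element, NF-κB and NF-Y.

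H2-K1: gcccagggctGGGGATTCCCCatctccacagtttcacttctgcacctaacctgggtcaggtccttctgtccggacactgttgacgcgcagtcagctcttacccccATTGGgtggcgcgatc

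H2-D1: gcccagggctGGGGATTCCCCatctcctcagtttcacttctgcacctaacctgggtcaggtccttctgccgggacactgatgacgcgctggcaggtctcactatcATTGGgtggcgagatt

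B2m: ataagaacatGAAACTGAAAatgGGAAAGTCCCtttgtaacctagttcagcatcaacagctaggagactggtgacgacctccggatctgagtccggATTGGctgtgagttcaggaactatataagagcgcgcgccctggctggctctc

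The H2-K1 and H2-D1 stretches share 108 of their 121 bases with no gap. In H2-K1 the NF-κB match begins 111 bases before the annotated start, in H2-D1 171 bases before it and in B2m 126 bases before it, next to the response element that begins 139 bases before the start. An NF-κB match is found in 3.9% of the 32851 windows of 250 bases, the response element in 2.98% and CCAAT in 33.8%. CCAAT was present in 6 of the 8 members with a window, the 3 shown and Tap1, Psmb9 and Tapbp. TGACGT, bound by CREB and ATF factors, is in 6.47% of windows and in none of the 8. These matches describe the letters in the windows, and binding was not measured.

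LPS raised all 10 genes in WT and all 10 in KO macrophages. The smallest change was that of H2-D1, 1.76-fold in WT and 1.78-fold in KO, and the largest that of Nlrc5, 27.03-fold in WT and 35.9-fold in KO. The transporter, tapasin, immunoproteasome and Nlrc5 genes rose by 6.59-fold or more, while the heavy chain genes and B2m, which were already abundant under PBS, rose by 3.43-fold or less. In WT, 36.5% of all tested genes were called higher and 40.2% lower by edgeR at an adjusted p under 0.05, and in KO 38.8% and 41.1%. The median log2 fold change of the 10 genes was 3.05 in WT and 3.38 in KO, beside -0.05 and -0.04 for all genes tested. In all 10 genes every LPS library lay above every PBS library of its genotype label, which held in the higher direction for 37.1% of all genes in WT and 39.7% in KO. The RNA is of a whole culture, so more RNA per cell and more cells of one type cannot be told apart. Together the 10 genes took 0.713% ± 0.029 (SD, n = 3) of all counts in WT PBS and 1.29% ± 0.11 in WT LPS, and 0.727% ± 0.025 in KO PBS and 1.32% ± 0.07 in KO LPS.

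**Figure D1:**
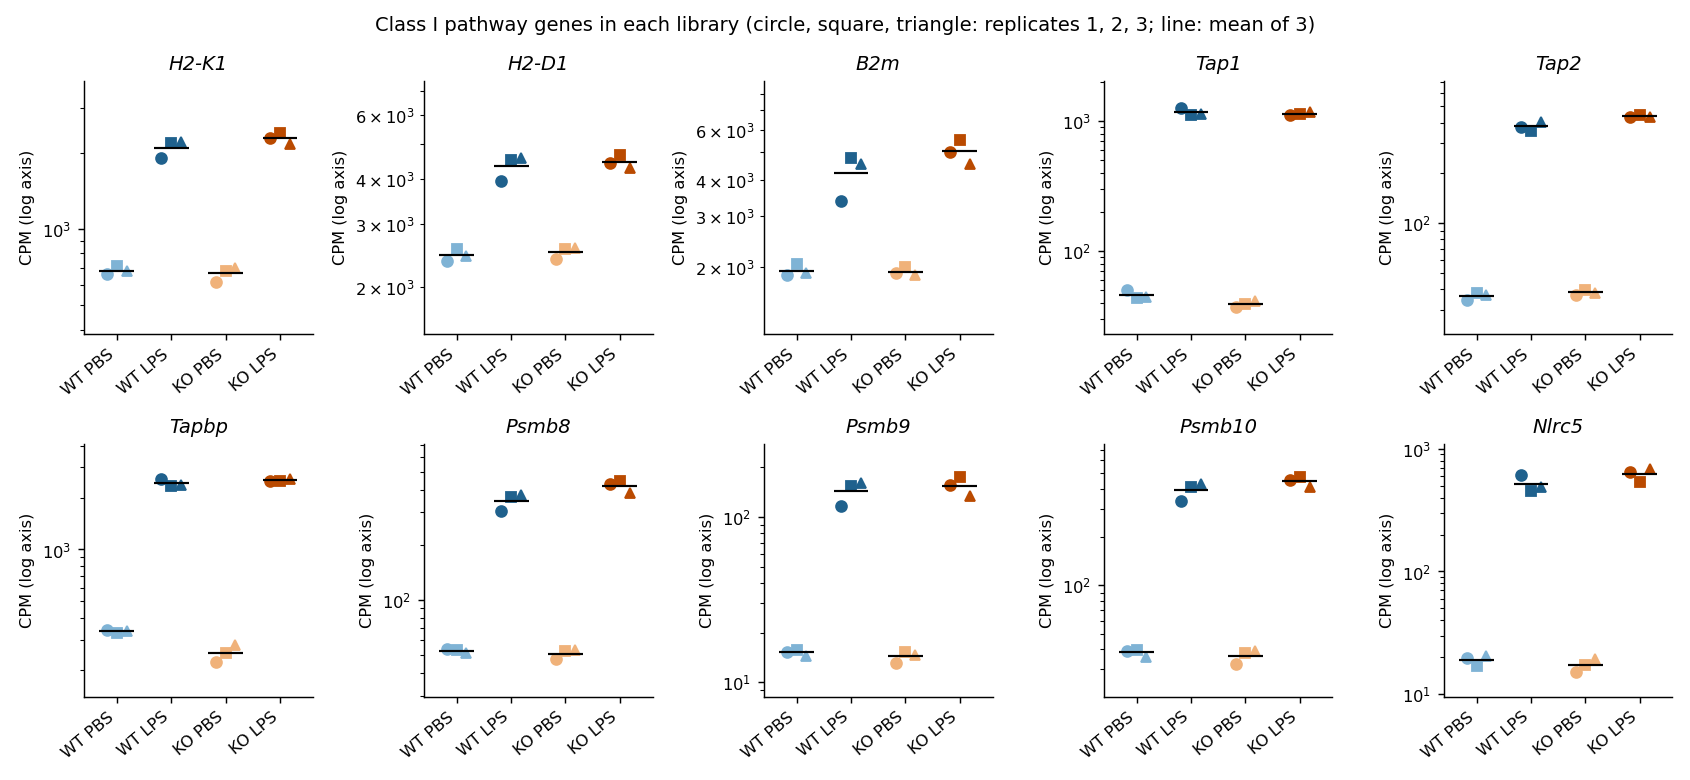
Level of each of the 10 genes in every library, in CPM on a log axis; circles, squares and triangles are replicates 1, 2 and 3 and lines are means of 3. In each panel the LPS libraries lie above the PBS libraries, with the narrowest gap for H2-D1 (2372 to 2561 against 3937 to 4571 CPM in WT) and wide gaps for Tap1 and Nlrc5.

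H2-K1 encodes one of the classical heavy chains. It stood at 663, 710.4 and 679.6 CPM in the WT PBS libraries and at 1900.0, 2189 and 2199 CPM in the WT LPS libraries. In KO it stood at 615, 684 and 704 CPM under PBS and at 2295, 2401 and 2171 CPM under LPS. The groups with and without LPS did not overlap in either, with log2 fold changes of 1.61 ± 0.07 (SE, adjusted p = 1.57e-12) in WT and 1.78 ± 0.07 (adjusted p = 3.87e-13) in KO.

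H2-D1, the other classical heavy chain of this strain, was the more abundant of the pair in every library and rose less. It was at 2372, 2561 and 2440.1 CPM in WT PBS and at 3937, 4502 and 4571 CPM in WT LPS. In KO the values were 2398, 2556 and 2565 CPM under PBS and 4434.5, 4669 and 4287 CPM under LPS. No LPS library overlapped the PBS libraries, and LPS changed H2-D1 by 0.82 ± 0.06 (adjusted p = 4.07e-09) in WT and 0.83 ± 0.06 (adjusted p = 2.82e-09) in KO on the log2 scale. Library totals alone, without TMM, lowered the responses of all 10 genes, for B2m to 0.47 in WT and 0.58 in KO, and the H2-D1 call in KO was the one that was lost. H2-D1 was then 0.16 in WT (adjusted p = 0.0401) and 0.03 in KO (adjusted p = 0.663). Because H2-K1 rose more, the ratio of H2-K1 to H2-D1 counts within a library, which no scaling touches, moved from 0.278 to 0.483 in WT and from 0.266 to 0.513 in KO. It also did not overlap between the labels, lower in KO under PBS and higher in KO under LPS, where it lay between 0.481 and 0.486 in WT and between 0.507 and 0.518 in KO. Within each label the 3 LPS libraries lay above the 3 PBS libraries. These 4 comparisons each had an exact two-sided permutation p of 0.1, unadjusted, the smallest that 3 against 3 allows.

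B2m encodes β2-microglobulin, the light chain shared by all class I molecules, and was the most abundant member per transcript length. Its level was 1873, 2054 and 1899.7 CPM in WT PBS and 3402, 4795 and 4545 CPM in WT LPS. In KO it was 1907, 2003 and 1878 CPM under PBS and 5029.7, 5528 and 4562 CPM under LPS. The first WT LPS library was the lowest of the 6 with LPS but still above all 6 with PBS. Its log2 fold changes were 1.13 ± 0.10 (adjusted p = 8.74e-08) in WT and 1.39 ± 0.11 (adjusted p = 6.82e-09) in KO.

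Beyond these, 19 further class I and class I-like heavy chain genes were in the tables and 17 were tested. LPS raised 12 and lowered 3 of the 17 in WT and likewise in KO, with list medians of 1.91 and 2.10 on the log2 scale. Among those with a group mean of 5 CPM or more, the largest changes in WT were those of H2-Q6 (4.44 ± 0.34), H2-M2 (4.43 ± 0.21) and H2-Q7 (4.28 ± 0.30), with adjusted p of 1.24e-07, 3.99e-12 and 6.51e-08. In KO the naming rule gave H2-Q8, H2-M2 (5.28 ± 0.25, adjusted p = 4.36e-12) and H2-Q7 (4.38 ± 0.28, adjusted p = 1.99e-08). H2-Q8 had no counts in the 3 KO PBS libraries and stood at 12.8, 2.999 and 2.55 CPM in the KO LPS libraries, so its mean of 6.10 CPM rests mostly on the first of them. The 3 that fell were Mr1, which presents vitamin metabolites to MAIT cells, Fcgrt, which encodes the neonatal Fc receptor, and Hfe, the hemochromatosis gene. Mr1 fell by 2.02 ± 0.10 on the log2 scale in WT and by 2.37 ± 0.11 in KO.

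Reads of 50 bases cannot always be given to one heavy chain gene. Of all windows of 50 bases in the transcripts, 8.79% of those of H2-K1 and 14.3% of those of H2-D1 also occur in another gene, chiefly other H2- genes, against 40.2% of those of H2-Q7 and 35.5% of those of H2-Q6. The counts of H2-K1 and H2-D1 carried decimals in all 12 libraries, whereas those of B2m were whole. Counts were therefore also summed over the 17 listed genes whose names begin with H2-, the pair included. The sum rose by 1.198 ± 0.065 in WT and 1.27 ± 0.065 in KO on the log2 scale (adjusted p = 2.89e-11 and 1.07e-11), and H2-K1 and H2-D1 made up 88.3% of it in WT PBS and 78.9% in WT LPS.

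Tap1 and Tap2 encode the paired chains of the transporter that carries peptides into the endoplasmic reticulum. Tap1 was at 50.6, 44.0 and 44.9 CPM in WT PBS and at 1265, 1101 and 1134 CPM in WT LPS. In KO it was at 37.0, 39.7 and 41.5 CPM under PBS and at 1114, 1133 and 1170.2 CPM under LPS. All LPS values were far above all PBS values, with log2 fold changes of 4.65 ± 0.08 (adjusted p = 7.65e-18) in WT and 4.85 ± 0.08 (adjusted p = 4.16e-18) in KO, or 25.1-fold and 28.9-fold.

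Tap2 started from a level near that of Tap1 and rose less. Its values were 34.5, 38.0 and 36.7 CPM in WT PBS and 378, 358 and 404 CPM in WT LPS. In KO they were 37.1, 39.6 and 38.3 CPM under PBS and 433, 443 and 430.4 CPM under LPS. The KO LPS libraries lay above the WT LPS libraries. With LPS the log2 fold changes were 3.38 ± 0.06 (adjusted p = 2.51e-17) in WT and 3.51 ± 0.06 (adjusted p = 1.29e-17) in KO. The ratio of Tap1 to Tap2 counts rose from 1.27 to 3.07 in WT and from 1.03 to 2.62 in KO without overlap. It was lower in KO than in WT in both conditions, also without overlap, at 1.16 to 1.46 in WT and 0.997 to 1.09 in KO under PBS and at 2.81 to 3.35 and 2.56 to 2.72 under LPS (exact p = 0.1 in each of the 4, unadjusted, the smallest possible). The counts of both genes carried decimals in all 12 libraries and their sum was whole in all 12, within a tolerance of 0.011. Between them 25 windows of 50 bases are shared, out of 2904 in Tap1. Of the windows of Tap2, 12.6% also occur in another gene, most of them in the gene model Gm15821. How many Tap2 counts came from shared reads was not measured.

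Tapbp encodes tapasin. It stood at 342, 326 and 336 CPM in WT PBS and at 2570.1, 2344 and 2357 CPM in WT LPS. In KO it stood at 223, 250.1 and 279.6 CPM under PBS and at 2493, 2504 and 2550.1 CPM under LPS. The KO PBS libraries lay below all WT PBS libraries, while the LPS libraries of both labels overlapped. Its log2 response to LPS was 2.86 ± 0.07 (adjusted p = 1.35e-15) in WT and 3.33 ± 0.08 (adjusted p = 1.95e-16) in KO. Of the windows of 50 bases in Tapbp, 21.0% also occur in another gene, most of them in the gene model Gm19412. How many of its counts came from shared reads was not measured.

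The remaining loading and trimming genes moved in both directions. Of 13 tested, 8 rose and 2 fell in WT, and 8 rose and 3 fell in KO, with list medians of 0.33 and 0.64. The largest changes were those of Lap3, which encodes leucine aminopeptidase 3 (3.10 ± 0.07 in WT and 2.77 ± 0.07 in KO), Tapbpl, which encodes the tapasin-related editor TAPBPR (2.64 ± 0.07 and 2.75 ± 0.07), and Lnpep, which encodes a trimming peptidase of endosomes (1.90 ± 0.13 and 1.79 ± 0.13). The adjusted p of these 6 changes lay between 1.81e-16 and 6.29e-09. Pdia3, a partner of tapasin in the loading complex, fell by 0.23 ± 0.05 in WT and by 0.41 ± 0.05 in KO. Calr, which encodes the chaperone calreticulin, had a log2 fold change of 0.02 ± 0.05 in WT (adjusted p = 0.798) and fell by 0.19 ± 0.05 in KO (adjusted p = 0.00352).

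Psmb8, Psmb9 and Psmb10 encode the inducible catalytic subunits β5i, β1i and β2i. Psmb8 was at 53.7, 53.1 and 51.4 CPM in WT PBS and at 304, 366 and 373 CPM in WT LPS. In KO it was at 47.3, 52.3 and 53.1 CPM under PBS and at 429.6, 445 and 384 CPM under LPS. The KO LPS libraries were all above the WT LPS libraries. LPS over PBS gave log2 fold changes of 2.72 ± 0.08 (adjusted p = 1.11e-14) in WT and 3.04 ± 0.08 (adjusted p = 2.45e-15) in KO. Of the windows of 50 bases in Psmb8, 5.83% also occur in the gene model Gm20496, while its counts were whole in every library.

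Psmb9 had the lowest counts of the 3. It was at 15.2, 15.8 and 14.4 CPM in WT PBS and at 117.2, 154 and 162 CPM in WT LPS, and in KO at 13.1, 15.3 and 14.6 CPM under PBS and at 157, 174 and 134 CPM under LPS. The libraries with LPS were all above those without, at log2 fold changes of 3.25 ± 0.13 (adjusted p = 2.21e-12) in WT and 3.44 ± 0.13 (adjusted p = 1.04e-12) in KO.

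Psmb10 lies on another chromosome than Psmb8 and Psmb9. It was at 39.2, 39.5 and 35.9 CPM in WT PBS and at 337, 409 and 429 CPM in WT LPS, and in KO at 32.4, 37.7 and 38.9 CPM under PBS and at 454, 475 and 409.7 CPM under LPS. Again no LPS library overlapped the PBS libraries, and the log2 fold changes were 3.36 ± 0.10 (adjusted p = 7.87e-15) in WT and 3.62 ± 0.10 (adjusted p = 2.83e-15) in KO.

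Each inducible subunit was then set against the constitutive subunit it replaces, as a ratio of counts within a library. The ratio of Psmb8 to Psmb5 was 0.743 in WT PBS and 4.005 in WT LPS, and 0.761 and 5.08 in KO. The ratio of Psmb10 to Psmb7 was 0.673 and 3.94 in WT, and 0.655 and 4.21 in KO. The ratio of Psmb9 to Psmb6 was 0.0839 and 0.355 in WT, and 0.0845 and 0.338 in KO. The first and second of these ratios thus changed from below 1 to above 1 with LPS, and Psmb9 counts stayed below Psmb6 counts. All 6 increases were without overlap, with an exact two-sided permutation p of 0.1 each and 0.171 after adjustment over the 12 ratio comparisons. Under LPS the Psmb8 to Psmb5 ratio was 3.67, 4.22 and 4.14 in WT and 5.13, 5.05 and 5.07 in KO, which does not overlap either (log2 difference 0.34, exact p = 0.1, adjusted 0.171). The Psmb9 to Psmb6 and Psmb10 to Psmb7 ratios overlapped between the labels under LPS, and all 3 did under PBS. These are ratios of counts that are not divided by length, and 57.1% of the windows of Psmb5 and 28.1% of those of Psmb7 also occur in another gene. The counts of Psmb5 and Psmb7 carried no decimals in any library.

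**Figure D2:**
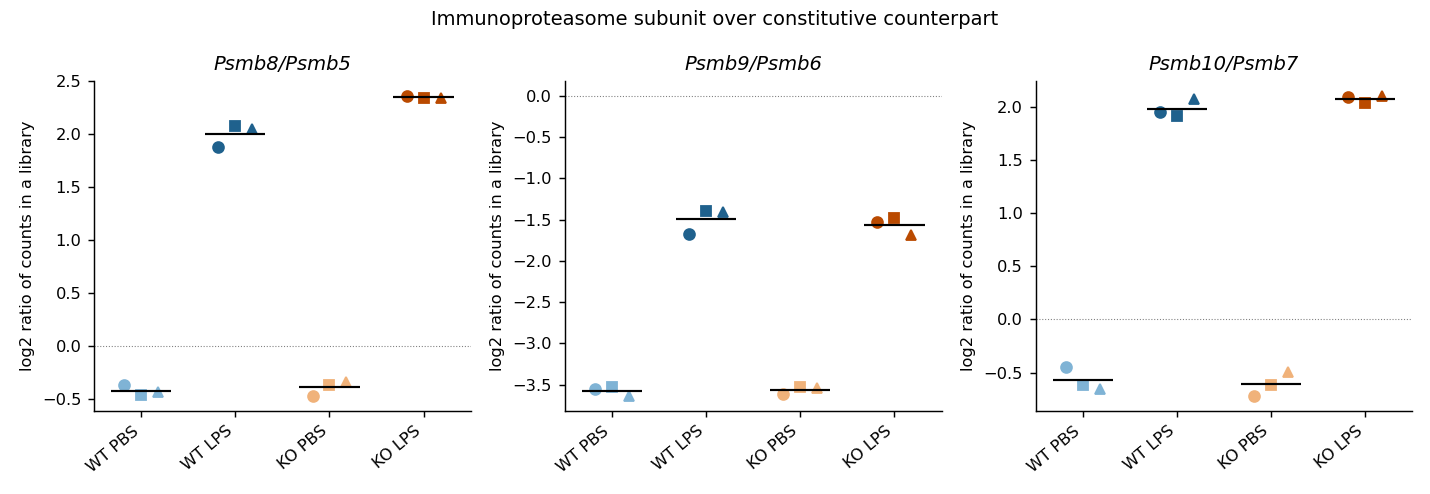
Log2 ratio of an inducible subunit's counts to those of its constitutive counterpart in each library; symbols are replicates 1 to 3, lines are means of 3 and the dotted line is a ratio of 1. With LPS the ratios of Psmb8 to Psmb5 and Psmb10 to Psmb7 lie above 1, and Psmb9 to Psmb6 rises but stays below 1.

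The constitutive genes Psmb5, Psmb6 and Psmb7 moved in the same direction by less than their inducible counterparts. All 13 tested genes of the list of constitutive subunits, assembly factor and proteasome activators rose with LPS in both WT and KO, with medians of 0.81 and 0.94. Among genes of the list with a group mean of 5 CPM or more, the largest changes were those of Psme2 (2.82 ± 0.12 in WT, 3.50 ± 0.13 in KO) and Psme1 (1.99 ± 0.08 and 2.45 ± 0.08), which together encode the PA28 activator, followed by Psmb6 (1.16 ± 0.07 and 1.43 ± 0.07), with adjusted p between 1.17e-14 and 4.36e-11. Psmb11, which encodes a thymus subunit and stayed at or below 1.31 CPM, rose by 2.50 ± 0.44 and 2.17 ± 0.44 (adjusted p = 7.50e-05 and 0.000276). Psmb5 rose by 0.29 ± 0.06 and 0.31 ± 0.06, and Psmb7 by 0.81 ± 0.09 and 0.94 ± 0.09.

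Nlrc5 encodes the transactivator that binds class I promoters together with the RFX and NF-Y proteins. It was low under PBS, at 19.9, 17.03 and 20.6 CPM in WT and 15.3, 17.4 and 19.4 CPM in KO. Under LPS it was at 609.6, 456 and 488 CPM in WT and at 651, 536 and 686 CPM in KO. Its log2 fold changes of 4.76 ± 0.14 in WT (adjusted p = 3.88e-13) and 5.17 ± 0.14 in KO (adjusted p = 1.61e-13) had 2.32% of all tested genes above them in each.

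Of the 16 listed regulators of class I genes, 10 rose and 4 fell in WT, and 11 rose and 4 fell in KO. The largest changes were those of Irf1 (4.44 ± 0.07 in WT and 4.32 ± 0.07 in KO), Stat2 (4.03 ± 0.09 and 4.42 ± 0.09) and Nfkb1 (3.49 ± 0.10 and 3.99 ± 0.10), which encode factors of the interferon and NF-κB pathways, with adjusted p between 5.73e-18 and 3.72e-15. The 4 that fell were Rfxap, Rfxank, Nfya and Ciita, and they were lower in both. Rfxap and Rfxank encode subunits of the RFX complex, Nfya a subunit of NF-Y, and Ciita the class II transactivator. Ciita fell by 1.64 ± 0.23 in WT (adjusted p = 5.66e-06) and by 1.01 ± 0.25 in KO (adjusted p = 0.00144).

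Per kilobase of transcript, B2m, H2-D1, H2-K1 and Tapbp were the 4 most abundant members in this order in every group, and Nlrc5 the least. In WT PBS the mean levels were 2258 CPM per kb for B2m, 1169 for H2-D1, 423 for H2-K1, 115 for Tapbp and 2.64 for Nlrc5, and in WT LPS they were 4937, 2062, 1294, 836 and 71.3. The order of the middle members changed with LPS. Psmb8 was above Psmb10 and Tap1 under PBS and below both under LPS, with 32.4, 29.1 and 15.7 CPM per kb in WT PBS and 213, 299 and 395 in WT LPS for Psmb8, Psmb10 and Tap1. Tap2 and Psmb9 overlapped in all groups, as did Psmb8 and Psmb10 in KO PBS, and the other neighbours in the order did not overlap between their 3 libraries.

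Between the labels under PBS, 2 of the 10 genes differed. Tapbp was lower in KO, with a log2 difference of -0.41 ± 0.07 (SE, adjusted p = 0.000474), and Tap1 was lower by less, at -0.24 ± 0.07 (adjusted p = 0.0237). In edgeR 25.3% of all tested genes were called in this comparison and 13% were called lower, so 2 of 10 lower is near the background. For both genes the 3 KO libraries lay below the 3 WT libraries, which held in that direction for 24.6% of all genes. The other 8 had differences between -0.14 (Nlrc5) and 0.07 (Tap2) and did not pass. The Tapbp call held when any 1 of the libraries was left out. The Tap1 call was lost without the first WT PBS library (-0.14, adjusted p = 0.213), the first KO PBS library (-0.17, adjusted p = 0.174) or the second KO PBS library (-0.22, adjusted p = 0.0918). Fibroblast markers, as given above, were also lower in KO PBS.

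Under LPS, 2 other members passed, both higher in KO. Psmb8 was higher by 0.27 ± 0.08 on the log2 scale (1.21-fold, adjusted p = 0.0102) and Tap2 by 0.20 ± 0.06 (1.15-fold, adjusted p = 0.0114), with every KO LPS library above every WT LPS library for both. Among all tested genes 41.4% were called in this comparison, 22.1% as higher and 19.3% as lower, and in 24.2% every KO library was above every WT library, so the members' count is again near the background. The other 8 members had differences between -0.03 (Tap1) and 0.27 (Nlrc5), of which B2m (0.25 ± 0.10, adjusted p = 0.0694), Nlrc5 (0.27 ± 0.12, adjusted p = 0.0839) and Psmb10 (0.19 ± 0.09, adjusted p = 0.0978) had an unadjusted p below 0.05. Neither call stood under every scaling: with upper-quartile scaling the values were 0.20 for Psmb8 (adjusted p = 0.0691) and 0.13 for Tap2 (adjusted p = 0.0931), and with library totals alone 0.18 (adjusted p = 0.0884) and 0.11 (adjusted p = 0.152). When the 6 LPS libraries were fitted alone neither passed, at 0.26 for Psmb8 (adjusted p = 0.0715) and 0.18 for Tap2 (adjusted p = 0.0663), and Tap2 was also lost without the second WT LPS library (0.16, adjusted p = 0.0533), in whose absence B2m passed (0.34, adjusted p = 0.0172). Without the third KO LPS library 4 members passed, with B2m at 0.31 (adjusted p = 0.0375) and Psmb10 at 0.25 (adjusted p = 0.0490) added to the pair. Nlrc5 passed without the first WT LPS library (0.40, adjusted p = 0.0112) or the second KO LPS library (0.37, adjusted p = 0.0219), and Psmb10 without the third WT LPS library (0.26, adjusted p = 0.0430). The difference of the summed H2- genes did not pass (0.07 ± 0.06, adjusted p = 0.409).

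Whether the size of the LPS response differed between the labels was tested as an interaction. Tapbp was the one member that passed: its response was larger in KO, 10.02-fold against 7.24-fold in WT, a log2 difference of 0.47 ± 0.10 (SE, adjusted p = 0.00384). Its KO level was lower under PBS, and the difference under LPS did not pass (0.05 ± 0.07, adjusted p = 0.569). In edgeR 18% of all tested genes were called for the interaction and 9.78% as higher, so 1 of 10 is what the background gives. All 10 differences were above 0, from 0.01 (H2-D1) to 0.47, with a median of 0.23 beside 0.01 for all genes. This median was 0.14 without the first WT LPS library or without the first KO PBS library, 0.11 without the first WT LPS and the second KO LPS library, and 0.09 with totals-only scaling, and H2-D1 fell below 0 under RLE, upper-quartile and totals-only scaling and Tap2 under totals-only scaling. Psmb8 (0.32 ± 0.11, adjusted p = 0.057) and Nlrc5 (0.41 ± 0.18, adjusted p = 0.140) had an unadjusted p below 0.05. Psmb8 passed without the second WT LPS library (0.36, adjusted p = 0.0442), the third WT LPS library (0.38, adjusted p = 0.0418) or the third KO LPS library (0.38, adjusted p = 0.0297). The 5 comparisons share their libraries and are not independent of one another.

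**Figure D3:**
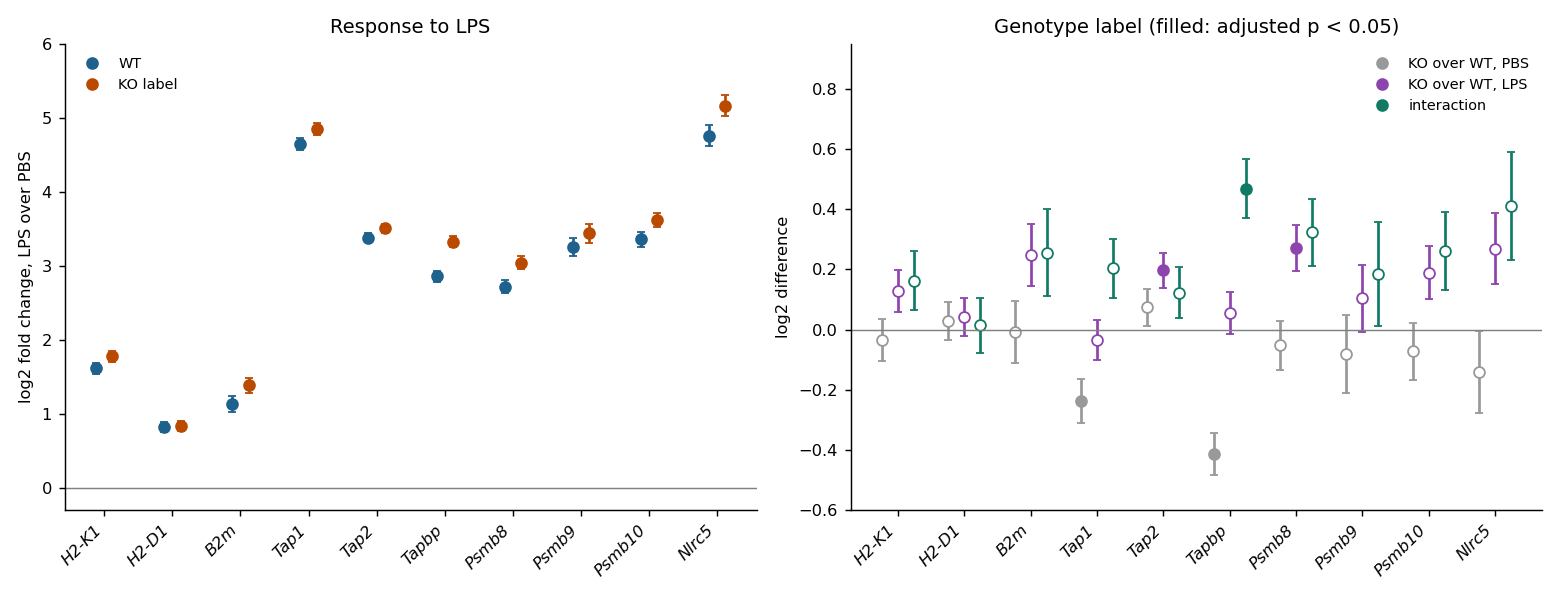
Log2 differences of the 10 genes with their SE from the edgeR fit; on the left LPS over PBS in WT and KO, on the right KO over WT under PBS, KO over WT under LPS and the interaction, with filled symbols for adjusted p under 0.05. All 20 LPS responses are above 0, and on the right the filled points are Tap1 and Tapbp under PBS, Tap2 and Psmb8 under LPS, and the Tapbp interaction.

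In the neighbouring lists 8 of 16 regulators, 6 of 13 loading and trimming genes and 6 of 17 heavy chain genes were called in KO against WT under LPS. Of the constitutive subunit and activator genes 4 of 13 were called, all higher. Beside the 41.4% of all genes given above, these counts do not set the lists apart. Among regulators 6 were higher and 2 lower in KO, the larger of these being Irf8, an interferon-regulated transcription factor of myeloid cells (-1.69 ± 0.06, adjusted p = 5.87e-12), which stood at 657, 705 and 639 CPM in WT LPS and 200.5, 203 and 217 CPM in KO LPS. Nfkb1 was higher in KO LPS by 0.60 ± 0.09 (adjusted p = 5.59e-05). Among the activators, Psme1 and Psme2 passed the interaction test at 0.45 ± 0.10 (adjusted p = 0.00643) and 0.69 ± 0.17 (adjusted p = 0.012). Calr was lower in KO under both conditions, by -0.45 ± 0.05 in PBS and -0.66 ± 0.05 in LPS on the log2 scale (adjusted p = 1.78e-05 and 1.66e-07). Under PBS 5 of 13 loading and trimming genes and 6 of 17 heavy chain genes were lower in KO, beside 13% of all genes. Of the heavy chain genes H2-Q4 was higher (0.27, adjusted p = 0.0256). In the other lists 3 of 16 regulators were lower and 2 higher, and 1 of 13 constitutive subunit and activator genes was lower. The lower loading and trimming genes were Calr, Lap3 (-0.33), Pdia3 (-0.19), Sec61a1 (-0.26) and Hspa5 (-0.17). The lower heavy chain genes were H2-M2 (-1.22), H2-T22 (-0.24), H2-T23 (-0.23), H2-T24 (-0.24), Fcgrt (-0.30) and Hfe (-0.24). Calr was one of 4 loading and trimming genes lower in KO LPS, with Lap3 (-0.67 ± 0.06), Pdia3 (-0.37 ± 0.05) and Sec61a1 (-0.22 ± 0.05), while Tpp2 (0.41 ± 0.07) and Erap1 (0.31 ± 0.07), which encode peptidases, were higher, with adjusted p between 8.15e-07 and 0.00422 for these 5. Erap1 (0.36), Tpp2 (0.31) and Lap3 (-0.33) passed the interaction test, with adjusted p of 0.0199, 0.0337 and 0.0236. Of the 17 heavy chain genes outside the members, H2-Q4 (0.59 ± 0.07), H2-T10 (0.75 ± 0.14) and H2-Q9 (0.76 ± 0.21) were higher in KO LPS, with adjusted p of 1.46e-05, 0.000387 and 0.0114, although the libraries of H2-Q9 overlapped. As many were lower, Fcgrt (-0.72 ± 0.11), Hfe (-0.64 ± 0.10) and Mr1 (-0.46 ± 0.14), with adjusted p of 6.52e-05, 0.00011 and 0.0138, and Fcgrt and Hfe also passed the interaction test as lower (-0.42 and -0.41, adjusted p = 0.0396 and 0.0364). Apart from Psme1, Psme2, Nfkb1, Lap3 and H2-M2, which the rule for naming genes gave for LPS alone, the genes of this paragraph were singled out after their values were seen.

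Within the LPS groups the members deviated together by transcript length. In the first WT LPS library, 6 genes with transcripts of 2102 bases or less, B2m, H2-K1, H2-D1, Psmb8, Psmb9 and Psmb10, were 0.20 to 0.46 log2 units below the mean of the other 2 libraries. Nlrc5, whose transcripts annotated as principal have a mean length of 7261.5 bases, was 0.37 above the mean of the other 2. In the third KO LPS library the same 6 genes were 0.09 to 0.31 below and Nlrc5 0.22 above. Tap1, Tap2 and Tapbp, with 2898 to 3442 bases, lay between -0.01 and 0.18 in the first of these and between -0.03 and 0.06 in the second. Over all tested genes, the median of transcripts over 4000 bases minus the median of those under 1000 bases was 0.37 in the first WT LPS library, 0.33 in the third KO LPS library, -0.33 in the second KO LPS library, and between -0.19 and 0.07 in the others. The part of this in the comparisons was not tested. All 10 genes rose with LPS in WT and KO in a pair of alternatives chosen after the data were seen, which left out the first WT LPS library together with either the second or the third KO LPS library. Without the first and the third, the count of members higher in KO LPS was 4 (Tap2, Psmb8, and with them B2m at 0.18 and Nlrc5 at 0.33, adjusted p = 0.0142 and 0.0388) and that for the interaction 3 (Tapbp at 0.50, Psmb8 at 0.30 and Tap1 at 0.25, adjusted p = 0.000621, 0.00486 and 0.0296). Without the first and the second, the counts were 3 (Tap2 at 0.18, Psmb8 at 0.14 and Nlrc5 at 0.50, adjusted p = 0.00985, 0.0479 and 2.42e-05) and 3 (Tapbp at 0.52, Tap1 at 0.27 and Nlrc5 at 0.65, adjusted p = 0.000351, 0.0124 and 0.000344), and B2m stood at 0.04 under LPS (adjusted p = 0.591), so the B2m call under LPS depended on which KO library was left out. Without the first WT LPS library alone, Tap1 (0.27, adjusted p = 0.0262) and Nlrc5 (0.55, adjusted p = 0.0356) passed the interaction test.

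**Figure D4:**
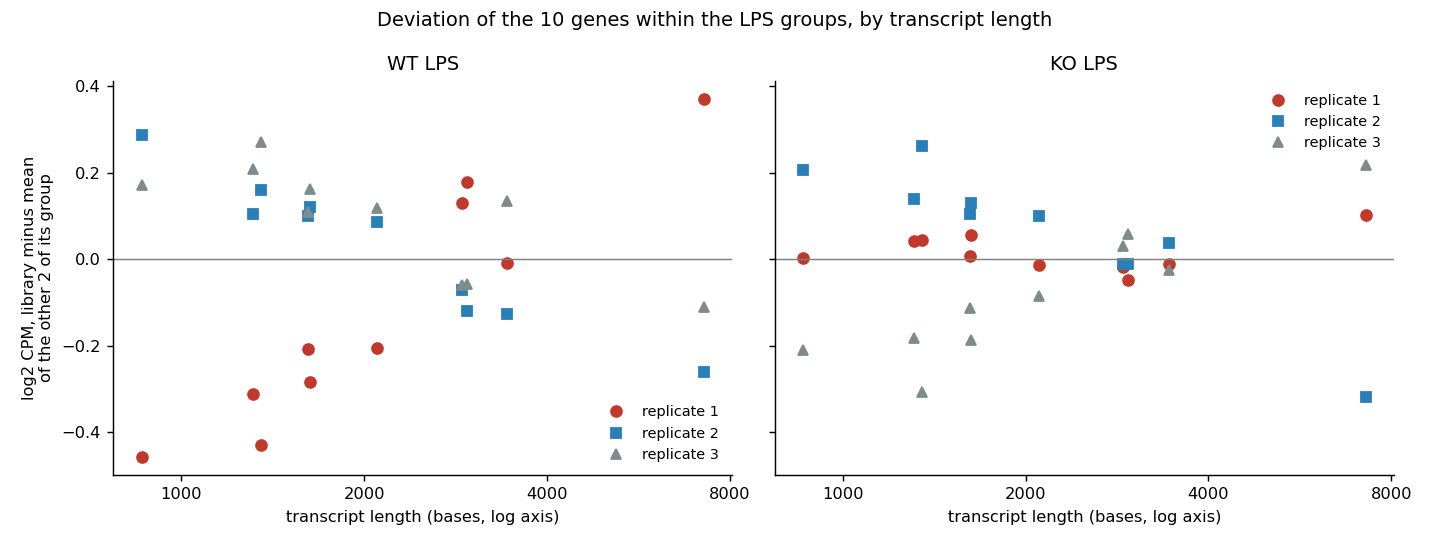
Log2 CPM of each of the 10 genes in an LPS library minus the mean of the other 2 libraries of its group, against transcript length in bases on a log axis. The short transcripts lie below 0 in the first WT LPS and the third KO LPS library, and Nlrc5, at the right end, lies above 0 in both.

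Over the 12 libraries the genes whose log2 CPM followed the mean profile of the 10 most closely were Sod2 (Pearson r = 0.9995), Isg20 (0.9995), AA467197 (0.9994), Ifi205 (0.9993) and Gsdmd (0.9992). Sod2 encodes mitochondrial superoxide dismutase and Gsdmd the pore-forming protein gasdermin D. The 12 points fall into a group with LPS and a group without it, and 1977 of the 8713 genes compared had r over 0.95, so these values are a description of the LPS response and single out no gene. Among the members themselves, Psmb10 (0.9998) was closest to the mean profile and B2m (0.9834) farthest from it.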

How the data were processed

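Peritoneal macrophage RNA was sequenced on a BGISEQ-500 in single reads of 50 bases. The deposited values are expected counts per gene, made by the authors. The submitters' processing notes name Bowtie2, RSEM 1.3.1 and GRCm38.p6, whereas the methods of the study name STAR and HTSeq. Decimals in 24.6% to 26.9% of the values show that reads shared by genes were split. Counts were rounded and fitted over all 12 libraries with edgeR 4.0.16 (R 4.3.3; filterByExpr, TMM, robust quasi-likelihood), with 5 contrasts and Benjamini-Hochberg adjustment over 12064 genes. SE is the absolute log2 fold change divided by the square root of F. Ratios were tested by exact permutation. The fit was tested on simulated data. Replicates are biological by the methods of the study, and the labels do not say which animals they came from. The members and the gene lists were chosen with earlier results of these data known. From each list the 3 called genes with the largest change were named for each LPS contrast if either group averaged 5 CPM or more, and the 5 genes most like the members by Pearson r. Alternatives were other scalings, other filters, DESeq2 1.42.0, fits of the compared libraries alone, the replicate block, summed heavy chains and leaving out each library. One listed regulator is not reported here by name.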

Additional observations from a re-analysis of the deposited data

Results flagged for a closer look

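The LPS response of Tapbp differed between the labels in the test of the difference itself: the log2 response was 2.86 ± 0.07 (SE) in WT and 3.33 ± 0.08 in KO, a difference of 0.47 ± 0.10 (edgeR, adjusted p = 0.00384, with 3 libraries per group). All 3 KO PBS libraries were below all 3 WT PBS libraries. The call held under the 21 other fits tried, with differences from 0.33 to 0.53 and adjusted p from 0.000309 to 0.0212, but not when a log2 difference beyond 1 was also asked for. Of all tested genes 18% were called in the same test. Of the windows of 50 bases in Tapbp transcripts 21.0% also occur in other genes, and the part of shared reads in the result was not tested.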

How the results depend on the processing

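All 10 LPS responses in WT and in KO kept direction under every alternative run and their call except H2-D1, which was lost in KO with library totals alone and in both with a log2 threshold of 1 (9 of 10 called). Totals alone moved the median log2 fold change of all genes by -0.66 in WT and -0.80 in KO and upper-quartile scaling by -0.31 and -0.36, and the share of calls that were higher went from 47.6% to 21.2% and 32.6% in WT and from 48.6% to 20.8% and 33.8% in KO. The 2 members called in KO against WT under LPS became 0 with upper-quartile scaling, totals alone or the compared libraries alone, 2 to 4 with 1 library left out, and 4 without the first WT LPS library and the third KO LPS library, chosen after the data were seen. Without the first WT LPS and the second KO LPS library, also chosen after the data were seen, that count was 3 and the interaction count 3. The 2 called under PBS became 1 to 2 with 1 library left out, and the 1 interaction became 1 to 3, and 3 without the first WT LPS and the third KO LPS library. With the log2 threshold of 1 all 3 of these counts became 0.

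Libraries with the same replicate number showed little likeness across groups (correlations of deviations from -0.0758 to 0.127, 1 of 12 over 0.1). The labels do not say whether the replicate numbers pair the libraries. With a replicate block 4 members were called in KO against WT under LPS, adding B2m and Nlrc5, and 2 for the interaction, adding Psmb8 (0.33, adjusted p = 0.0483).

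Directions turned only for differences that had not passed. In the interaction H2-D1 was -0.00527 with RLE scaling and with DESeq2, -0.0334 with upper-quartile scaling, -0.13 with totals alone, -0.022 without the first WT LPS and the third KO LPS library and -0.051 to 0.053 with 1 library left out, and Tap2 was -0.015 with totals alone. Under LPS, H2-D1 was -0.027 with upper-quartile scaling, -0.049 with totals alone and -0.023 to 0.081 with 1 library left out, Tapbp was -0.014 with upper-quartile scaling and -0.035 with totals alone, Tap1 was 0.0091 without those 2 and -0.074 to 0.028 with 1 left out, and Psmb9 was -0.025 to 0.20. Under PBS, B2m was 0.00767 with RLE scaling and DESeq2, 0.039 with totals alone and -0.025 to 0.033 with 1 left out. H2-K1 was 0.012 with totals alone and -0.053 to 0.048 with 1 left out, H2-D1 was -0.0066 with heavy chains summed, Psmb8 was -0.070 to 0.026, Psmb9 -0.11 to 0.0083 and Psmb10 -0.12 to 0.032. Without the first WT LPS and the second KO LPS library, H2-D1 was -0.055, Tap1 0.033 and Psmb9 -0.12 under LPS, and H2-D1 was -0.083 and Psmb9 -0.034 in the interaction, where Psmb9 was 0.056 to 0.28 with 1 library left out. The cause was not tested. Depth limits the H2-Q genes other than H2-Q4, which stood at or below 2.48 CPM under PBS.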
